A study of Mus musculus with 6 samples.

Results

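The imprinted genes H19, Meg3, Rian, Mirg, Peg3, Mest, Plagl1, Ndn, Zim1 and Grb10 were followed in neonatal mouse dermal fibroblasts with and without stabilized β-catenin. They were chosen by symbol, as a fixed list of 10 among 41126 genes in the table of all genes, and all 10 were found and passed the filter on low counts. H19, Meg3, Rian and Mirg are noncoding and were also read among the 5385 genes of the lncRNA table, on the scale of that table. RNA-seq, which counts sequenced cDNA fragments gene by gene, was done on 3 control (CTRL) and 3 gain of function (GOF) cultures.

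All cultures were dermal fibroblasts of mice labelled CD1, C57Bl6 at postnatal day 4, grown from ventral trunk skin and infected in culture. GOF cultures carry the label AdCre (an adenovirus that delivers Cre recombinase) and the genotype Ctnnb1{delta}ex3/+, in which loss of exon 3 gives a β-catenin protein that escapes degradation. Control cultures are labelled AdGFP and +/+, whereas the methods describe control cells with the same allele and a GFP adenovirus. The treatment label names AdCre at 366 to 500 MOI for 6 hours for every culture, so it does not separate the groups. The virus and β-catenin differ together between the groups and cannot be told apart. The labels name 4 animals. Control 0 and GOF 2 came from one of them and Control 2 and GOF 0 from another, while Control 1 and GOF 1 each came from an animal with no culture in the other group. Control 0 and Control 2 thus share the inherited genotype of a GOF culture, as the methods describe, and the +/+ label cannot be that genotype. For Control 1 the label cannot be checked in this way.

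The all-gene table held 35980831 to 42834467 fragments per library and 1022957 to 1726901 were held in the lncRNA table. Ctnnb1 itself was at 254 to 285 FPKM in control and 246 to 297 FPKM in GOF libraries, which is no check of the deletion because a value over the whole gene does not show exon 3. Axin2, a direct β-catenin target, was at 0.136 to 0.177 FPKM in control and 14.4 to 19.2 FPKM in GOF libraries. FPKM is the number of fragments scaled by transcript length and by the size of the library. The summed level of 10 fibroblast markers was 3179 to 4062 FPKM in control and 2576 to 3150 FPKM in GOF libraries. At an adjusted p under 0.05 (edgeR), 1 of the markers rose and 3 fell, where 11.1% of all tested genes rose and 10.2% fell. By mean FPKM, Vim rose from 798 to 1339, while Dcn fell from 1058 to 330, Col1a2 from 867 to 387 and Col6a1 from 170 to 97.5. The other markers did not pass. In bulk samples, fewer cells of a type and less RNA per cell cannot be told apart.

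An imprinted gene is expressed mainly from the copy inherited from one parent, because DNA methylation laid down in the germ line marks a control region on one parental chromosome. Such genes often lie in clusters, and in those of H19 and Meg3 maternally expressed noncoding RNAs sit beside paternally expressed coding genes. Many act on fetal and neonatal growth, and several of them are switched down after birth in most tissues. H19 shares enhancers with Igf2, a fetal growth factor on the opposite parental chromosome. Meg3, Rian and Mirg lie one after the other on the maternal chromosome of the Dlk1-Dio3 cluster and host microRNAs and small nucleolar RNAs. The libraries do not separate parental alleles, so every value is the sum over both copies.

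Promoter sequences are shown for Grb10 and Mest, which carry the clearest changes below, and for Plagl1, the next largest change among the coding members. Each is 300 bases, from 250 before to 50 after a transcription start in RefSeq on GRCm38.p6, read 5′ to 3′ on the strand of the gene, with CpG dinucleotides, the sites of DNA methylation, in capitals. For each gene the window with most CpG is given.
Grb10, chr11:12037371-12037670, minus strand: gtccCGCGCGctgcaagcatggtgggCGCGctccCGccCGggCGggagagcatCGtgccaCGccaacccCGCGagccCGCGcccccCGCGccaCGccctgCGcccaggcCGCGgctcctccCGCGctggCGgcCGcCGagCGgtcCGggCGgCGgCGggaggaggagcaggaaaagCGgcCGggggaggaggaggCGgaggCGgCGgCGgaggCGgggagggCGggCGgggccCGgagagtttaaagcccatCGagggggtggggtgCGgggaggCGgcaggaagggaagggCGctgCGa
Mest, chr6:30737800-30738099, plus strand: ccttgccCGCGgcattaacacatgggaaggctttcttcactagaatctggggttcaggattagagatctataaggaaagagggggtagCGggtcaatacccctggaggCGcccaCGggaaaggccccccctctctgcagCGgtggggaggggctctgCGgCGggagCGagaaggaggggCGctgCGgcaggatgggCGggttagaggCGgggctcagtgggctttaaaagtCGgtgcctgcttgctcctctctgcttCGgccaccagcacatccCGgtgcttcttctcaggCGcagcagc
Plagl1, chr10:13090582-13090881, plus strand: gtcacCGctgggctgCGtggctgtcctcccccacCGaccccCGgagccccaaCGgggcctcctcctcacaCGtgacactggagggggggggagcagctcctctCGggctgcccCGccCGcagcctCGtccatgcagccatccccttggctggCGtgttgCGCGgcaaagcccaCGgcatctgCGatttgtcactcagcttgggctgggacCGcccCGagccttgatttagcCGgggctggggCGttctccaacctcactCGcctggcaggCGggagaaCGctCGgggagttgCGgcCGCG

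The Grb10 window holds 45 CpG, the Plagl1 window 26 and the Mest window 17, against a median of 7 over 32851 RefSeq promoter windows of the same length. At least as many CpG were held by 1.93% of those windows for Grb10, 16.9% for Plagl1 and 31.4% for Mest. The windows shown were chosen for most CpG, whereas the others were not. Both strands were searched for TGCCGC, the core motif bound by the imprint-keeping zinc finger protein Zfp57, which is in 11.6% of all windows, and for CTTTGAT, a Tcf/Lef motif, which is in 3.73%. Of the 13 windows of the 9 members with an entry, 6 hold TGCCGC, among them the 3 shown, and none holds CTTTGAT. Among the 6 are the Mest windows starting at 30737800 and 30737803, which overlap almost fully and share their matches. TGCCGC itself contains a CpG, so the share over all windows is no like comparison for windows chosen by CpG. These matches describe the letters of the windows, and neither methylation nor binding was measured.

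H19 and Mest also host microRNAs, which are shown with the seed, bases 2 to 8, in capitals. The hairpin of miR-675 lies in an exon of H19 (chr7:142577064-142577147, minus strand) and that of miR-335 in an intron of Mest (chr6:30741299-30741396, plus strand), on GRCm38.p6.
mmu-miR-675-5p: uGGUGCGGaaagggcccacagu
mmu-miR-675-3p: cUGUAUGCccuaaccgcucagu
mmu-miR-335-5p: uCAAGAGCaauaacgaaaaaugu
mmu-miR-335-3p: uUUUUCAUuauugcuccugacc
No 2 of these seeds are alike. Mature microRNAs are too short for these libraries and were not measured, so what follows concerns the host transcripts.

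In control libraries the members spanned a wide range of levels per length. Rian was highest at 580 ± 9.82 FPKM (SD, n = 3), followed by H19, Grb10, Meg3, Ndn, Peg3, Mirg, Plagl1 and Mest, and Zim1 was lowest at 1.29 ± 0.681 FPKM. The ranges of neighbours in that order overlapped for H19 and Grb10, for Meg3 and Ndn, and for Peg3 and Mirg, and not for the other neighbours. By the test across the whole table, edgeR's quasi-likelihood test with Benjamini-Hochberg adjustment, 2 of the 10 members, Grb10 and Mest, were lower in GOF with more than a 2-fold change and an adjusted p under 0.05, and none was higher. Over all 15462 genes tested, 5.64% were called lower and 6.69% higher by the same rule. The median log2 fold change of the members was -0.32, against a median of -0.02 over all genes tested. It was below 0 for 9 of 10, but 8 of the 10 did not pass an adjusted p of 0.05. Zim1, among the 9, was at -6.4e-05, and Meg3, Rian and Mirg are of the same cluster. FPKM did not overlap between the groups for 4 members, Grb10, Mest, Plagl1 and Rian, all lower in GOF, where 19.2% of all genes tested did not overlap in that direction.

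**Figure D1:**
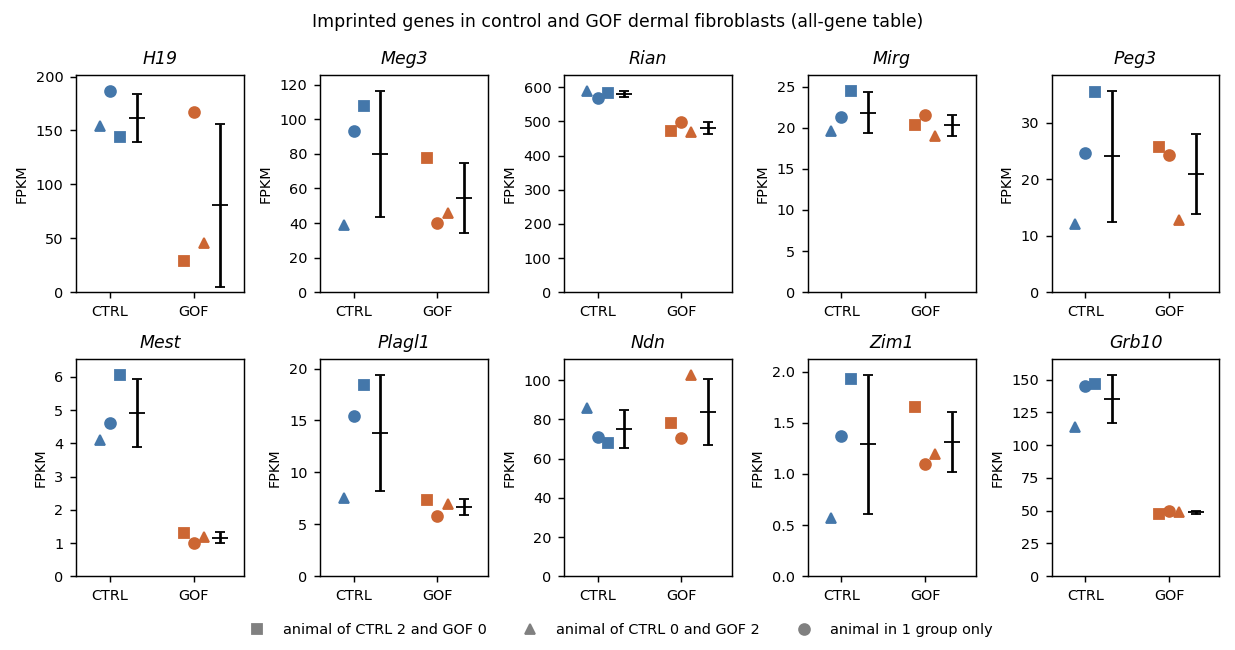
FPKM of the 10 imprinted genes in the all-gene table, one panel per gene with its own linear axis from 0, with one point per library for CTRL and GOF and black bars for the mean and SD (n = 3). Squares and triangles mark the 2 animals with a culture in both groups. Grb10 and Mest separate clearly, at 47.2 to 49.8 and 1.01 to 1.32 FPKM in GOF, while one GOF library of H19 stays at the control level.

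Grb10, an adaptor protein that restrains insulin and insulin-like growth factor receptor signalling, is expressed from the maternal copy in most tissues. It lies on chromosome 11 from 11930508 to 12038683 (minus strand, GRCm38). Its FPKM was 114, 145 and 147 in control replicates 0, 1 and 2 and 47.2, 49.8 and 49.1 in GOF replicates 0, 1 and 2. Every GOF library was below every control library, and the GOF libraries varied little among themselves (SD 1.32 FPKM, against 18.6 FPKM in control). The log2 fold change was -1.48 ± 0.14 (SE; adjusted p = 0.00067, edgeR), a level 2.79-fold lower. Within the animals with both cultures, the log2 ratio of GOF to control, on counts scaled by library size, was -1.60 and -1.30.

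Mest, a hydrolase-like membrane protein of mesodermal tissue expressed from the paternal copy, was the member with the largest difference. It lies on chromosome 6 from 30723547 to 30748465 (plus strand). Its FPKM was 4.09, 4.60 and 6.06 in control and 1.32, 1.01 and 1.17 in GOF replicates 0, 1 and 2. The groups did not overlap, and the values rest on 287 to 407 fragments per control and 85 to 111 per GOF library. The log2 fold change was -1.94 ± 0.19 (SE; adjusted p = 0.00075, edgeR), a level 3.84-fold lower. The log2 ratio within the shared animals was -1.86 and -2.0. Copg2 overlaps Mest on the opposite strand, and its log2 fold change was 0.08 ± 0.10 (adjusted p = 0.638, edgeR). Copg2 held 3385 to 4338 fragments per library. The methods name a stranded library kit, but whether the counting used strand is not stated, so reads of the overlap may be assigned to either gene.

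Plagl1, a paternally expressed zinc finger transcription factor that regulates other imprinted genes, lies on chromosome 10 from 13060504 to 13131694 (plus strand). Its FPKM was 7.58, 15.4 and 18.4 in control and 7.30, 5.77 and 6.94 in GOF replicates 0, 1 and 2. All GOF libraries were below all controls, but control 0 sat just above the highest GOF library. The log2 fold change of -0.96 ± 0.31 (SE) did not pass the threshold (adjusted p = 0.0636, edgeR). It passed without control replicate 0 (-1.27, adjusted p = 0.0028, edgeR), and with DESeq2 and without the filter on low counts, over a range of 0.0028 to 0.180 across all alternatives. Within the animals, the log2 ratio was -1.17 from control 2 to GOF 0 and -0.22 from control 0 to GOF 2.

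H19, a maternally expressed long noncoding RNA that is abundant in fetal tissue, lies on chromosome 7 from 142575529 to 142578143 (minus strand). Its FPKM was 155, 187 and 144 in control and 28.9, 167 and 45.2 in GOF replicates 0, 1 and 2. GOF 0 and GOF 2 were far below every control, whereas GOF 1, from the animal without a control culture, lay within the control range. The spread of the GOF group was 94.0% of its mean, against 13.9% in control. With all 6 libraries the log2 fold change was -1.07 ± 0.58 (SE; adjusted p = 0.233, edgeR) and did not pass. With the animal as a block it was -2.03 ± 0.18 (adjusted p = 0.00074, edgeR), a fit with 1 residual degree of freedom that rests on the animals with both cultures. Without GOF replicate 1 it was -2.14 ± 0.28 (adjusted p = 0.0067, edgeR), and over all alternatives the adjusted p ran from 0.00074 to 0.438. The log2 ratio of GOF to control was -2.30 in one shared animal and -1.76 in the other.

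**Figure D2:**
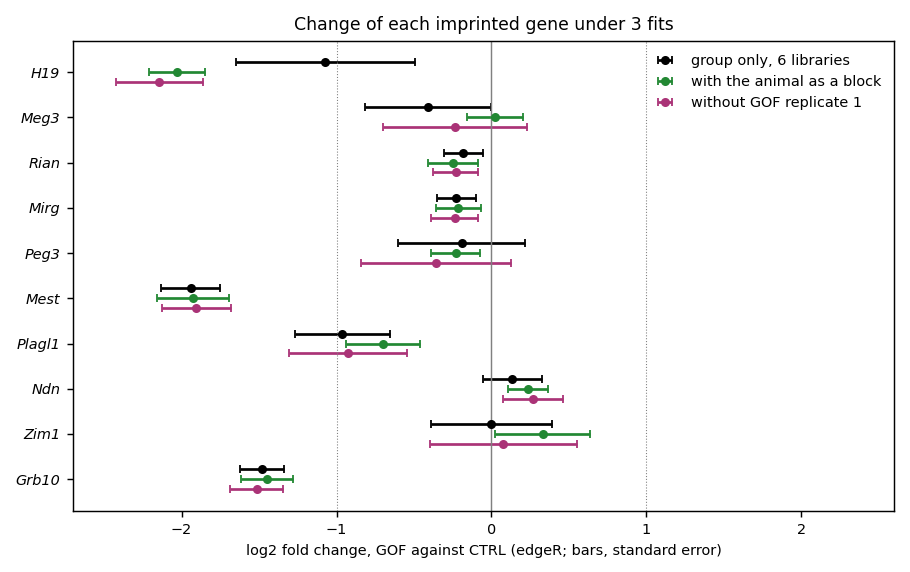
Log2 fold change of GOF against CTRL for each imprinted gene in the all-gene table, with standard errors derived from the edgeR test as bars. The fits are by group over 6 libraries, with the animal as a block and without GOF replicate 1. Dotted lines mark a fold change of 2. H19 moves from -1.07 to -2.03 and -2.14, whereas Mest stays near -1.9 and Grb10 near -1.5.

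Igf2, the neighbour of H19 expressed from the paternal copy, was at 1.65, 4.22 and 2.91 FPKM in control and 3.74, 12.2 and 1.95 FPKM in GOF replicates 0, 1 and 2. GOF 1, the library with H19 at the control level, also had the highest Igf2. The groups overlapped, and the log2 fold change of 0.94 ± 0.64 (SE) did not pass (adjusted p = 0.335, edgeR). Without GOF replicate 1 it was 0.0029 ± 0.50. The ratio of H19 to Igf2 FPKM within a library was then taken, a measure chosen after the values of both genes were seen. It was 93.7, 44.3 and 49.3 in control and 7.72, 13.7 and 23.2 in GOF replicates 0, 1 and 2. All GOF libraries, GOF 1 included, were below all controls, and the mean log2 ratio was lower by a difference of -2.13 (p = 0.1, two-sided, by an exact permutation test, which cannot go lower with 3 libraries a group). Ins2, the third gene of the cluster, had at most 1 fragment in any library.

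**Figure D3:**
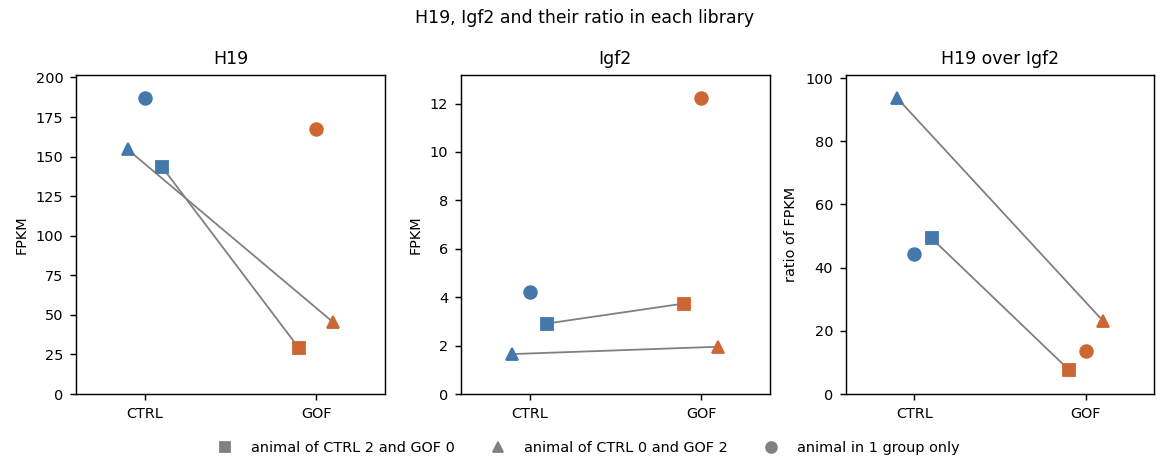
FPKM of H19 and of Igf2 and the ratio of H19 to Igf2 in each library on linear axes, with lines joining CTRL and GOF cultures of the same animal. In the ratio, GOF libraries lie at 7.72 to 23.2 and controls at 44.3 to 93.7.

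Rian, the most abundant member, lies on chromosome 12 from 109603940 to 109661716 (plus strand). Its FPKM was 589, 570 and 583 in control and 473, 500 and 469 in GOF replicates 0, 1 and 2. The groups did not overlap and were each narrow, but the difference was small, with a log2 fold change of -0.18 ± 0.13 (SE; adjusted p = 0.349, edgeR) that did not pass. Gm26945, a lincRNA annotated within Rian on the same strand, shares this interval, so the split of reads between them is uncertain.

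Meg3, the first noncoding RNA of the same cluster (chromosome 12, 109541001 to 109571726, plus strand), was at 38.6, 93.5 and 108 FPKM in control and 77.7, 40.3 and 45.6 FPKM in GOF replicates 0, 1 and 2. The groups overlapped, and the animal of control 0 and GOF 2 was low in both cultures while that of control 2 and GOF 0 was high in both. The log2 fold change was -0.41 ± 0.41 (SE; adjusted p = 0.513, edgeR), and with the animal as a block it was 0.02 ± 0.18. Gm26906 overlaps Meg3 on the opposite strand and held 157, 400 and 502 fragments in control and 343, 179 and 231 in GOF libraries, against 2987 to 10089 for Meg3.

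Mirg, the third noncoding RNA of the row (chromosome 12, 109729764 to 109749460, plus strand), was at 19.7, 21.4 and 24.5 FPKM in control and 20.3, 21.6 and 18.96 FPKM in GOF replicates 0, 1 and 2. The groups overlapped and the log2 fold change was -0.23 ± 0.13 (SE; adjusted p = 0.250, edgeR). Although the 3 transcripts lie one after the other on the same strand, they did not keep a fixed proportion. Meg3 was 6.55%, 16.4% and 18.5% of Rian by FPKM in control and 16.4%, 8.06% and 9.73% in GOF replicates 0, 1 and 2, while Mirg was 3.34% to 4.31% of Rian in all 6 libraries.

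**Figure D4:**
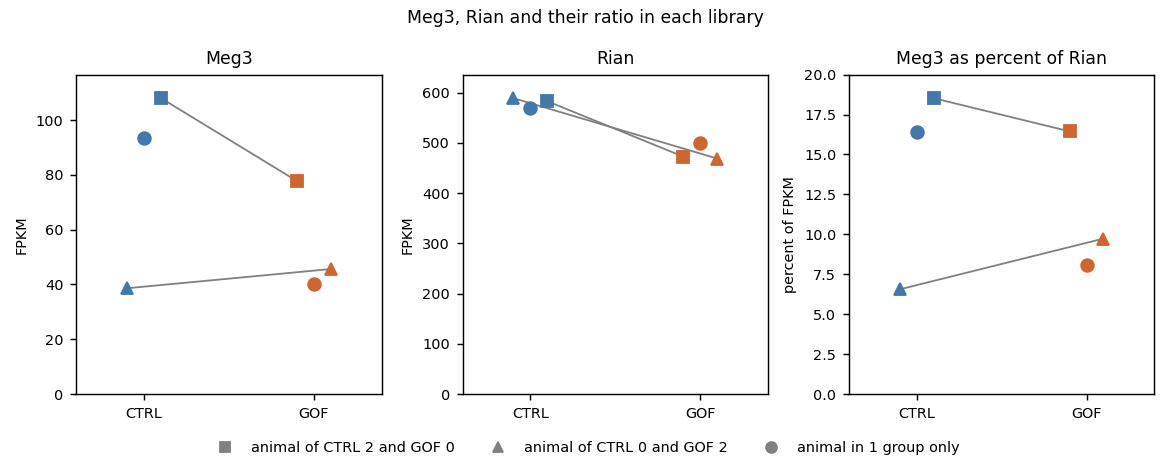
FPKM of Meg3 and Rian and the FPKM of Meg3 as a percent of that of Rian in each library, on linear axes from 0, with lines joining cultures of the same animal. Meg3 varies 2.80-fold between libraries and Rian 1.26-fold, and the percent is low in control 0, GOF 1 and GOF 2.

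Annotated small RNAs inside these 4 noncoding genes on the same strand numbered 1 in H19, 4 in Meg3, 17 in Rian and 14 in Mirg. The all-gene table lists 1, 4, 17 and 13 of them, and none reached 10 fragments in any library. Among coding genes of the Dlk1-Dio3 cluster, which are expressed from the paternal copy, the log2 fold change of Dlk1 was -0.82 ± 0.35 (adjusted p = 0.141, edgeR), that of Rtl1 -0.27 ± 0.16 (adjusted p = 0.293) and that of Dio3 -1.82 ± 0.75 (adjusted p = 0.131). Dio3, which inactivates thyroid hormone, had 6 to 30 fragments per control library and 3 to 11 per GOF library. For Begain the log2 fold change was -0.39 ± 0.45 (adjusted p = 0.570, edgeR). None of the 7 tested genes of this cluster passed. Dlk1 was called lower when control replicate 0 was left out, and across its alternatives the adjusted p ran from 0.0377 to 0.344.

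In the lncRNA table the same 4 transcripts were read against noncoding RNAs alone. Their fragments were the same as in the all-gene table to within 12 fragments, whereas their FPKM was 23.9 to 41.8 times higher, so levels are compared only within a table. H19 was at 5639, 5832 and 3434 FPKM in control and 1084, 6078 and 1158 FPKM in GOF replicates 0, 1 and 2. GOF 0 and GOF 2 again lay below all controls, and GOF 1 was the highest of the 6 libraries. None of the 4 passed an adjusted p of 0.05 in this table, where 11.6% of 1389 tested genes passed and 9.36% were called with a fold change over 2, in either direction. The log2 fold changes (edgeR) were -0.99 for H19 (adjusted p = 0.319), -0.35 for Meg3 (adjusted p = 0.617), -0.14 for Rian (adjusted p = 0.826) and -0.18 for Mirg (adjusted p = 0.650). With the animal as a block H19 was called, at -2.05 (adjusted p = 3.5e-05, edgeR), as it was without GOF replicate 1, at -2.07 (adjusted p = 0.0185, edgeR).

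The separation of Rian by FPKM in the all-gene table was not seen on the scale of this table. Its fragments were nearly the same in both, so this is no second measurement. Rian was at 17681 to 22803 FPKM in control and 14986 to 20870 FPKM in GOF libraries of the lncRNA table, so the groups overlapped. Meg3 was at 1165 to 2711 FPKM in control and 1288 to 2336 FPKM in GOF, and Mirg at 699.6 to 734 and 627 to 843 FPKM. The 4 together took 4.83%, 4.76% and 4.62% of the fragments of the lncRNA table in control and 2.59%, 4.77% and 3.6% in GOF replicates 0, 1 and 2. GOF 1 was again within the control range, and the other GOF libraries below it. The total of the lncRNA table was largest in GOF 0, at 1726901 fragments, which lowers its share. Of the fragments of the all-gene table the 4 took 0.137%, 0.165% and 0.158% in control replicates 0, 1 and 2. In GOF replicates 0, 1 and 2 they took 0.107%, 0.138% and 0.094%, so that GOF 2 was lowest.

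Peg3, a paternally expressed zinc finger protein, and Zim1, its maternally expressed neighbour, lie side by side on the proximal part of chromosome 7, from 6703892 to 6730431 and from 6671269 to 6696450 (both minus strand). Peg3 was at 12.1, 24.6 and 35.4 FPKM in control and 25.7, 24.3 and 12.9 FPKM in GOF replicates 0, 1 and 2. The groups overlapped, and as for Meg3 the animal of control 0 and GOF 2 was low in both cultures and that of control 2 and GOF 0 was high in both. The log2 fold change was -0.19 ± 0.41 (SE; adjusted p = 0.772, edgeR). Zim1 was at 0.570, 1.37 and 1.92 FPKM in control and 1.65, 1.10 and 1.19 FPKM in GOF, with 94 to 357 fragments per library. Its groups overlapped in full, with a log2 fold change of 0.00 ± 0.39 (adjusted p = 0.9999, edgeR). Usp29, also of this cluster, had at most 6 fragments in any library.

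Ndn, or necdin, a paternally expressed growth suppressor of the cluster deleted in Prader-Willi syndrome, lies on chromosome 7 from 62346569 to 62350262 (plus strand). It was at 85.9, 70.9 and 67.9 FPKM in control and 78.3, 70.7 and 103 FPKM in GOF replicates 0, 1 and 2. The groups overlapped, with the highest value in GOF 2, and the log2 fold change of 0.14 ± 0.19 (SE; adjusted p = 0.654, edgeR) was the only one above 0 among the members. In the same cluster Atp10a, a phospholipid transporter, fell from 9.36, 10.6 and 12.4 FPKM in control to 5.26, 4.88 and 5.15 FPKM in GOF (log2 fold change -1.10 ± 0.13, adjusted p = 0.0015, edgeR). Mkrn3, Peg12 and Ube3a had log2 fold changes of -0.21, -0.12 and -0.11 (adjusted p = 0.632, 0.642 and 0.495, edgeR) and did not pass. Magel2 had at most 1 fragment in any library and Snhg14 at most 9.

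For the members, control replicate 0 tended to be the lowest control library and control replicate 2 the highest. Control 0 was the lowest control for 7 of the 10 members and control 2 the highest for 7. Over all tested genes, control 0 was lowest for 44.0% and highest for 41.8%, and control 2 was lowest for 25.0% and highest for 40.3%. GOF 2, from the animal of control 0, was the lowest GOF library for 3 members and for 31.9% of all tested genes. GOF 0, from the animal of control 2, was the highest for 5 members and for 30.4% of all tested genes. With 1 control library per animal, animal and culture cannot be told apart. This comparison was chosen after the values were seen.

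Of 58 further imprinted genes on a list drawn from general knowledge, 52 were matched and 39 tested in the all-gene table. At an adjusted p under 0.05, 3 rose and 5 fell (edgeR), 7 of them by more than 2-fold, and 31 did not pass. Over all tested genes 11.1% rose and 10.2% fell at that threshold, and the median log2 fold change of the list was -0.06. One of the 8 lies beside a called member. Ddc, the aromatic amino acid decarboxylase gene beside Grb10, fell from 1.75, 2.78 and 1.59 to 0.347, 0.338 and 0.444 FPKM (log2 fold change -2.60 ± 0.40, adjusted p = 0.0046, edgeR), on 12 to 28 fragments per GOF library. Cobl, on the other side of the cluster, was at 0.744, 0.587 and 0.362 FPKM in control and 0.591, 0.398 and 1.26 FPKM in GOF replicates 0, 1 and 2. The groups overlapped and its log2 fold change of 0.63 ± 0.42 (SE) did not pass (adjusted p = 0.333, edgeR), whereas with the animal as a block it was called higher, at 1.04 ± 0.27 (adjusted p = 0.035, edgeR), over a range of 0.035 to 0.840 across its alternatives. Klf14, in the cluster of Mest, had at most 4 fragments in any library.

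Outside the clusters of the members, the changes fell in both directions. Cdkn1c, a maternally expressed inhibitor of cyclin-dependent kinases, fell from 14.9, 23.2 and 25.5 to 8.48, 10.9 and 7.13 FPKM (log2 fold change -1.30 ± 0.21, adjusted p = 0.0056, edgeR). Slc22a18, a transporter of the same cluster, fell from 5.45, 6.30 and 5.99 to 2.34, 2.05 and 3.36 FPKM (log2 fold change -1.14 ± 0.27, adjusted p = 0.023, edgeR). In each case every GOF library was below every control, although the call of Slc22a18 was lost with the animal as a block, where its log2 fold change was below 2-fold at -0.89 ± 0.25 (adjusted p = 0.048, edgeR), and when control 1, control 2, GOF 0 or GOF 1 was left out (adjusted p = 0.0506 to 0.0912).

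Herc3, a ubiquitin ligase gene, had the largest rise on the list, from 1.95, 1.84 and 2.68 to 33.7, 30.7 and 32.3 FPKM (log2 fold change 3.93 ± 0.15, adjusted p = 4.9e-05, edgeR). Nap1l5, a paternally expressed gene inside Herc3 on the opposite strand, fell from 1.54, 1.10 and 1.41 to 0.768, 0.535 and 0.424 FPKM (log2 fold change -1.23 ± 0.30, adjusted p = 0.027, edgeR). The host and the gene inside it thus went in opposite directions, with the split of their shared reads uncertain. The call of Nap1l5 was lost when any library but GOF 0 was left out (adjusted p = 0.0537 to 0.0771).

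Sfmbt2, a polycomb group gene expressed from the paternal copy, rose from 0.310, 0.295 and 0.427 to 0.911, 0.805 and 0.780 FPKM (log2 fold change 1.43 ± 0.19, adjusted p = 0.0027, edgeR). Blcap, which overlaps Nnat on the opposite strand, rose by less than 2-fold (log2 fold change 0.43 ± 0.12, adjusted p = 0.038, edgeR) and no longer passed when any 1 library was left out (adjusted p = 0.0538 to 0.125).

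**Figure D5:**
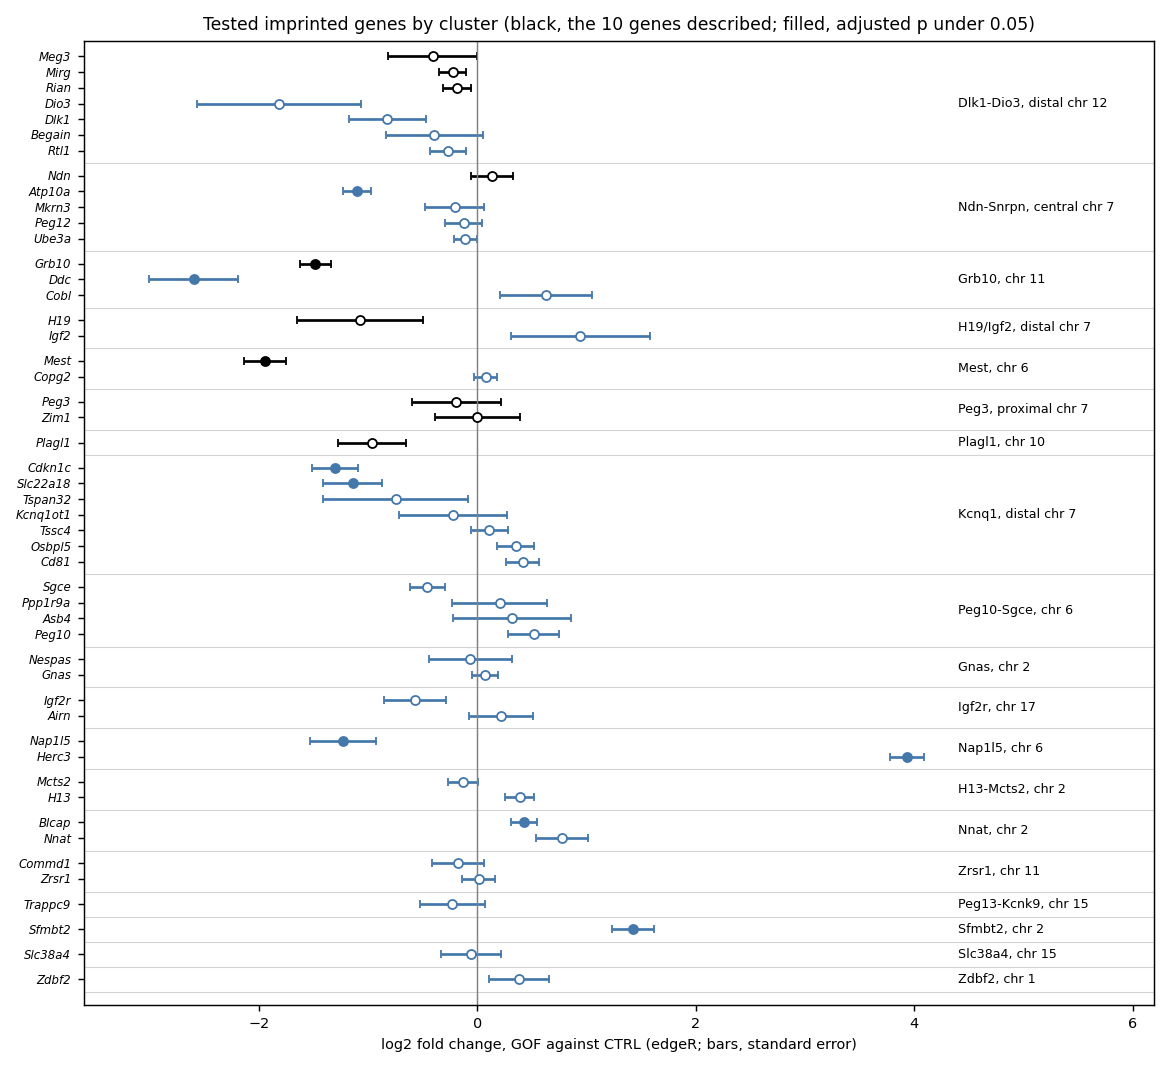
Log2 fold change of GOF against CTRL with its standard error (edgeR) for the 10 imprinted genes described (black) and 39 other tested imprinted genes (blue), grouped by cluster, with filled points for an adjusted p under 0.05. Herc3 stands far to the right at 3.93 and Ddc farthest to the left at -2.60, and every gene of the Dlk1-Dio3 cluster is open.

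Of 15 genes whose products place, keep or read imprints, 14 were tested, 2 fell and none rose at an adjusted p under 0.05, where 10.2% of all tested genes fell and 11.1% rose. Uhrf1, which brings the maintenance methyltransferase to replicating DNA, fell from 6.60, 4.64 and 4.54 to 1.67, 1.66 and 1.86 FPKM (log2 fold change -1.63 ± 0.20, adjusted p = 0.0018, edgeR). Smchd1, a chromatin protein that silences some imprinted genes, fell from 15.7, 17.3 and 17.6 to 12.3, 11.9 and 14.6 FPKM (log2 fold change -0.36 ± 0.10, adjusted p = 0.046, edgeR), by less than 2-fold. It no longer passed with the animal as a block (adjusted p = 0.0738, edgeR) or when any library but control 0 was left out (adjusted p = 0.0681 to 0.158). The other 12 did not pass, with log2 fold changes from -0.71 for Dnmt3b to 0.25 for Arid4a (adjusted p = 0.161 and 0.219, edgeR). Nearest to the threshold were Zfp57 (-0.69 ± 0.22, adjusted p = 0.0639, edgeR) and Dnmt3a (-0.55 ± 0.19, adjusted p = 0.0758, edgeR). Across their alternatives the adjusted p ran from 0.0144 to 0.198 for Zfp57 and from 0.0072 to 0.224 for Dnmt3a. The median log2 fold change of the 14 was -0.26, and 11 were below 0.

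Single markers of other cell types also differed between the groups. The summed level of 8 skeletal muscle markers was 23.6 to 27.8 FPKM in control and 139 to 173 FPKM in GOF libraries, with Acta1 and Chrna1 higher, while the muscle-defining Myod1 and Pax7 had at most 1 fragment and Myf5 at most 3. Most of the sum was Acta1, at a mean of 24.9 FPKM in control and 150 FPKM in GOF. Des did not pass (log2 fold change 0.31, adjusted p = 0.541, edgeR). Myog and Myh3, too low to be tested, had means of 0.044 and 0.074 FPKM in control and 0.0065 and 0.012 FPKM in GOF. The 4 adipocyte markers summed to 7.18 to 8.95 FPKM in control and 1.80 to 3.17 FPKM in GOF, with Fabp4 lower and Adipoq, Plin1 and Cidec at no more than 3 fragments in any library. The 4 melanocyte markers summed to 3.13 to 7.62 and 0.928 to 2.29 FPKM, the 5 endothelial markers to 3.38 to 4.22 and 0.985 to 3.90 FPKM, and the 5 macrophage markers to 2.57 to 4.27 and 4.38 to 9.47 FPKM. In each of these lists 1 marker passed, Mlana and Tek lower and Csf1r higher, and the others tested were mixed in direction. Against Mlana and Tek, Tyr, Pecam1 and Cdh5 had log2 fold changes of 1.33, 0.78 and 0.56, while Pmel and Emcn were at -0.40 and -0.44. Against Csf1r, Adgre1 and Tyrobp were at -0.28 and -0.04, while Ptprc and Cd68 were at 0.23 and 0.20. The 6 keratinocyte markers summed to at most 0.562 FPKM, and no pericyte or Schwann marker passed. The part of such cells in the differences of Grb10, Mest and H19 was not tested.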

How the data were processed

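RNA-seq of 3 control and 3 GOF cultures was analysed from a table of all genes and a table of lncRNAs. The authors mapped paired reads to mm10 with TopHat, and the estimated counts deposited are unscaled Cuffdiff fragments per gene and library. The FPKM values were deposited after Cuffdiff's scaling by transcript length and library. The methods name a stranded library kit. Tool versions are not given in the sources used here, nor is whether counting used strand. Another 6 per-library columns were left unused, and 32 genes with a failed estimate, none of them named here, were left out.

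Identifiers were matched to GENCODE M21 (GRCm38), 97.9% in the all-gene table and 96.4% in the lncRNA table. Estimated counts, of which 4.95% and 0.634% were not whole, were rounded and analysed in R 4.3.3 with edgeR 4.0.16 (filterByExpr, TMM, quasi-likelihood test, Benjamini-Hochberg adjustment over each table). Calls needed more than a 2-fold change and an adjusted p under 0.05. The standard errors given with edgeR were derived from its test, as the absolute log2 fold change over the square root of the F statistic. Single FPKM comparisons used a two-sided exact permutation test (SciPy 1.17.1). The fits were tested on simulated data. The 3 cultures of a group came from 3 animals.

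Deviations from the group mean correlated in the cultures of the same animal (r = 0.408 and 0.459 over tested genes), and the labels give the pairing, so the animal-blocked value is printed where it changes a call. The alternatives were DESeq2 1.42.0, library totals, upper-quartile normalization, dropping the filter on low counts, an FPKM of at least 1 in 3 libraries, limma 3.58.1 on log2(FPKM + 1) and log2(FPKM + 0.1), a block by replicate number or animal, each library left out in turn and, for lncRNAs, scaling by totals over all genes.

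The members and lists were chosen with earlier results of these data known. All members are named, with every other imprinted gene or imprint regulator at an adjusted p under 0.05, the genes of the members' clusters, and small RNAs inside the noncoding members at 10 fragments or more. The imprint regulators that did not pass were named after their values were seen. Of the list of 58, Zim2, Zim3, Zfp264, Snurf, Snrpn and Peg13 were not analysed here. Promoter and microRNA sequences are from RefSeq (GRCm38.p6), which matched 9 of the 10 members, H19 not among them.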

Additional observations from a re-analysis of the deposited data

How the results depend on the processing

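Of 214 values of single members under the alternatives, 187 kept their direction and side of the threshold, 7 newly passed it and 20 changed sign, none of the last with an adjusted p under 0.05. Grb10 and Mest were called under all 15 alternatives of the all-gene table. Among lncRNAs alone, 1 member (H19) was called with the replicate block by animal, and 0 to 1 when a library was left out. Of the other imprinted genes, 3 in place of 7 were called with limma on log2(FPKM + 1), whose pseudocount shrinks low genes. Blcap, which passed without a 2-fold change, also did not pass with library totals and upper-quartile normalization (adjusted p = 0.0554 and 0.0587, edgeR). Nor did it pass with no filter on low counts or with the block by number (adjusted p = 0.0643 and 0.179, edgeR). Smchd1 likewise did not pass with no filter or the block by number (adjusted p = 0.0967 and 0.209, edgeR) and with limma (adjusted p = 0.0763 and 0.0736). The block by number also lost the calls of Slc22a18 and Nap1l5 (adjusted p = 0.0675 and 0.0682, edgeR).

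The sign of Meg3 turned with the replicate block by animal (log2 fold change 0.022 over all genes and 0.0083 among lncRNAs). Zim1, at about 0, was 0.012 with DESeq2, 0.00018 with no filter, 0.00066 with the FPKM filter, 0.054 and 0.15 with limma, 0.11 with the block by number and 0.33 with that by animal. Mirg in the lncRNA table was 0.00072 and 0.00071 with limma. With a library left out, Zim1 ran from -0.35 to 0.36, Peg3 from -0.52 to 0.17, Ndn from -0.073 to 0.27, and Rian in the lncRNA table from -0.20 to 0.016. The cause of these turns was not tested. Counts of members called with a library left out ran from 2 to 3 in the all-gene table.

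Samples with the same replicate number did not deviate together (r = -0.409, 0.0534 and -0.441), so the numbers do not pair them. The block by number lowered the calls over all genes from 1906 to 1421. It made 2 member calls. Mest and Zim1, at 85 and 94 fragments in their lowest library, are the members on which counting error weighs most.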
